A study of Mus musculus with 4 samples.

Results

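Pseudogene transcripts of Lin-LEPR+ skeletal stem/progenitor cells were compared between the bone marrow of mature and elderly mice. Transcripts were selected on their annotated type (any type containing the word pseudogene, without immunoglobulin and T-cell receptor types) and on a count sum over 20 across the 4 RNA-seq libraries. Of 95883 transcripts listed, 5514 were pseudogene transcripts by this definition and 1110 of them, from 1104 genes, passed the count minimum. Of the rest, 3013 had 0 counts in all 4 libraries, and 431 of the 5514 had no exon base of their own to which a read could be assigned. The members comprised 873 transcribed processed, 55 transcribed unprocessed, 41 processed and 6 unprocessed pseudogene transcripts, 1 polymorphic pseudogene transcript and 134 with the plain type pseudogene.

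Both ages were wild type male C57Bl/6 mice, mature at 3 months and elderly at 24 months, with 2 libraries per age. RNA of 3 or 4 mice in a group was combined, and whether each library was a pool of its own is not stated, so the p-values measure the spread between these libraries, which may be technical. The labels call the tissue whole bone marrow, whereas the study's methods describe cells sorted as Ter119-, CD31- and CD45- and then LEPR+. The libraries held between 10472117 and 15650518 counts, at which 3 counts in a library correspond to 0.205 to 0.267 CPM (each count divided by its TMM-adjusted library size, the unit of level used throughout). The 10 stromal markers summed to 30597 to 31555 CPM in mature and 19026 to 29066 CPM in elderly libraries (0 genes higher and 5 lower). Ptprc (CD45) was at 0.0851 to 0.337 CPM in mature and 0.547 to 1.07 CPM in elderly libraries. Counts fall only on bases that no other transcript covers, so a low Ptprc value does not show that CD45+ cells were absent. Erythroid markers (193 to 432 CPM in mature, 1381 to 1454 CPM in elderly, 10 of 11 genes higher in both elderly libraries), neutrophil markers (1202 to 2067 and 4503 to 4638 CPM, 9 of 11 genes) and markers of dividing cells (202 to 435 and 854 to 1181 CPM, 10 of 10 genes) were higher in the elderly libraries. T cell markers (3.87 to 6.13 CPM in mature, 10.2 to 16.5 CPM in elderly, 4 of 7 genes) and the 5 plasma cell markers found (116 to 136 and 144 to 167 CPM, 2 genes higher and 2 lower) also summed higher in elderly libraries. B-lineage markers summed lower (656 to 727 and 443 to 582 CPM, Cd79b at 0), though 5 of 10 genes were higher and 1 lower. Megakaryocyte markers (47.9 to 364 and 188 to 321 CPM) and endothelial markers (17.3 to 27.1 and 19.3 to 20.8 CPM, Tek at 0) overlapped between the ages. The part these cells play in the results below was not tested, and in bulk RNA fewer cells of a type cannot be told apart from less RNA per cell.

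A pseudogene is a copy of a gene that has lost the capacity to make the original protein. Processed pseudogenes arise when a spliced mRNA is copied back into the genome, so they usually lack introns and carry the body of the mRNA without its promoter. Unprocessed pseudogenes arise by duplication of genomic DNA and often keep the exon structure of the source gene. Because mRNAs of housekeeping genes are abundant in the germ line, ribosomal protein and other translation genes have left many processed copies in mammalian genomes. A short read from the source mRNA can match such a copy, and similarity to a protein-coding gene is therefore given beside each member.

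Most members had this structure. A single exon made up 868 of the 1110 members (78.2%), and the exon length had a median of 648 bases and a range of 102 to 7293 bases. A protein-coding transcript of another gene aligned on the same strand to at least 50% of the exon bases of 1000 members (90.1%), with a median identity of 94.4%. Identity was at least 98% for 240 members and under 80% for 99. These similar genes numbered 670, of which 503 were matched by 1 member each. Rps2, a protein of the small ribosomal subunit, was matched by 16 members, the most of any gene. The median member had 74.7% of its 40-base words (the read length) at a single place in the genome and transcript sequences, and 34 members had no such word. Counts were nevertheless deposited for those 34 (4943 in sum, at most 541 for a single member), so reads were assigned to members that no single 40-base read could identify.

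The following stretches, read from NCBI Build 37 (mm9), show how closely some of the members that differed with age match a protein-coding gene. In each pair the stretch is the 100-base ungapped window within the coding sequence that holds the most differences, and capitals mark the bases that differ between member and gene. Gm3571 (chr10:93241556-93241655, + strand) is shown beside bases 152 to 251 of the Fdps coding sequence, with 3 differences.
Gm3571: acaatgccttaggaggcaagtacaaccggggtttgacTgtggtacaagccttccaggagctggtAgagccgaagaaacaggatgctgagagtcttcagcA
Fdps: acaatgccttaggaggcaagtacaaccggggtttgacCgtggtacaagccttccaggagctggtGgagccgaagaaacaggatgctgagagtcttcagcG
Gm13502 (chr2:53555739-53555838, - strand) had no difference from Idi1 in any window of the coding sequence, and the first 100 coding bases are shown.
Gm13502: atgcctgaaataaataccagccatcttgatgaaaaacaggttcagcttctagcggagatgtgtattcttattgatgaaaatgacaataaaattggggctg
Idi1: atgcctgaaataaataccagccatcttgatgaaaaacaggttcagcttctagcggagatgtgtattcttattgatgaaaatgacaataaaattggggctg
Hist3h2bb-ps (chr11:58767831-58767930, - strand) differed from the first 100 coding bases of Hist3h2ba at 15 positions.
Hist3h2bb-ps: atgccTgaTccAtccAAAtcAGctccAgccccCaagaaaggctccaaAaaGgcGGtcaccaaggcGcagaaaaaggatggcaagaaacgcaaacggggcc
Hist3h2ba: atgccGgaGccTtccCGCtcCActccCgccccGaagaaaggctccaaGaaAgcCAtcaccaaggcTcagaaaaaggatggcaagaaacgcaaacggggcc
Gm5067 (chr5:26333894-26333993, + strand) differed from coding bases 349 to 448 of Rrs1 at 11 positions.
Gm5067: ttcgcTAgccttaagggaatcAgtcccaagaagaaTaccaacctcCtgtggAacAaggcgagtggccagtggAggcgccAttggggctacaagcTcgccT
Rrs1: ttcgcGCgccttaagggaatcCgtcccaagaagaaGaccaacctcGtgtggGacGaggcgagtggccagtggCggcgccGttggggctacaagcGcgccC
Across the whole alignment, Gm3571 differed from Fdps at 10 bases and 4 gap positions of 1144, and the longest run without a difference was 221 bases. The longest such runs were 1178 bases for Gm13502 and Idi1 (1 differing base and 16 gap positions), 119 bases for Hist3h2bb-ps and Hist3h2ba, and 93 bases for Gm5067 and Rrs1, each longer than a read.

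The other stretches belong to the member with the most counts and to the member with the smallest p. AY036118 is shown for the 100 bases at the 5′ end of its longest exon (chr17:39985442-39985541, - strand) and Gm15433 for its first 100 bases (chr1:84960244-84960343, + strand), both in lower case since no gene is compared.
AY036118: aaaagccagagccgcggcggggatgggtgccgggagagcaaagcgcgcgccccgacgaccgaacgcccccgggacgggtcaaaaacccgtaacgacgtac
Gm15433: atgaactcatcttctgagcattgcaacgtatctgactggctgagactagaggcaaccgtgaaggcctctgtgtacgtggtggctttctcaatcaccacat

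The share of each library's counts in pseudogene transcripts did not separate the ages. Members held 3.04% (95% Wilson interval 3.033 to 3.053%, counting error only) and 3.47% (3.462 to 3.483%) of the counts in the mature libraries and 5.03% (5.012 to 5.039%) and 2.81% (2.801 to 2.817%) in the elderly libraries. The elderly libraries were thus the highest and the lowest of the 4. The mean was 3.26% ± 0.304 (SD, n = 2) in mature and 3.92% ± 1.57 (SD, n = 2) in elderly (difference 0.659 percentage points, two-sided exact permutation test p = 1, where 2 against 2 libraries cannot go below 0.333).

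A single member accounted for most of these counts. AY036118 (chr17:39985048-39985772, - strand, 4 exons with 714 bases) held 84.8% of all member counts, with 302767 and 346956 counts in mature libraries and 464949 and 358058 in elderly ones. RefSeq (GRCm38.p6) lists AY036118 as a long noncoding RNA gene and places it over Rn18s-rs5, an 18S ribosomal RNA pseudogene. In the assembly, 100% of its 40-base words were at a single place. This covers assembled sequence only, and whether its reads came from ribosomal RNA was not tested. It took 2.54% and 2.96% of counts in mature and 4.44% and 2.29% in elderly libraries, so the ages overlapped. Its log2 fold change (elderly over mature, as throughout) was 0.26 (SE 0.245, adjusted p = 0.848, edgeR quasi-likelihood test). Without elderly library 1 it was -0.17, and without elderly library 2 it was 0.59.

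Without AY036118 the 1109 other members held 0.505% and 0.515% of counts in mature and 0.586% and 0.521% in elderly libraries. Both elderly values were above both mature values, by 0.0432 percentage points on average (exact permutation p = 0.333, the smallest possible). With the 10 members with the most counts left out, the shares were 0.392%, 0.384%, 0.454% and 0.389% in the same order, and the ages overlapped (exact permutation p = 0.667). Transcribed processed pseudogene transcripts, the largest type, held 0.342% and 0.337% in mature and 0.398% and 0.346% in elderly libraries (exact permutation p = 0.333). In these subsets elderly library 1 stood above the other 3 libraries, which lay close together.

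**Figure D1:**
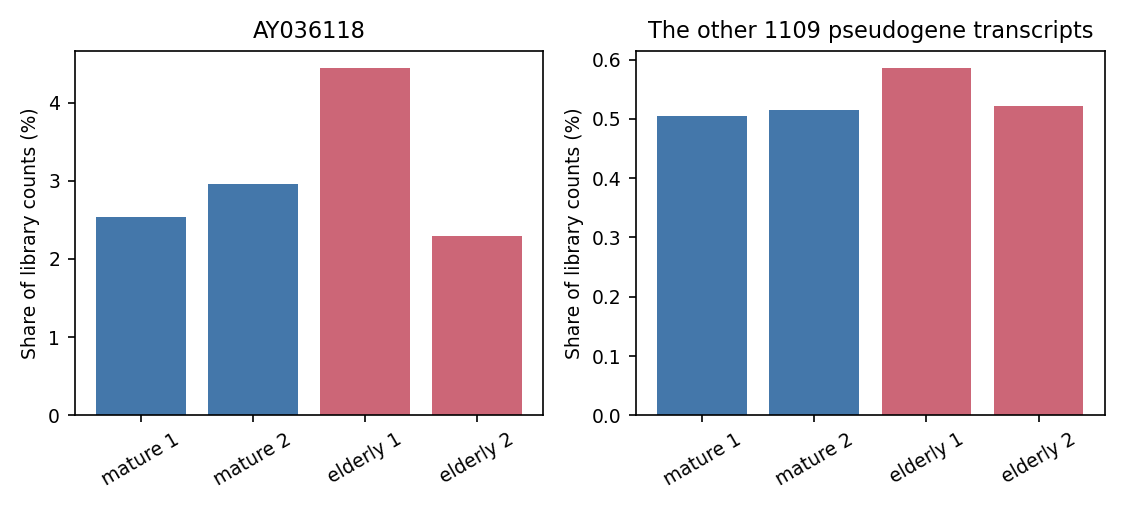
Share of library counts (%) in AY036118 (left) and in the other 1109 pseudogene transcripts (right), 1 bar per library, mature in blue and elderly in red, on axes that start at 0. Elderly library 1 holds the highest share in both panels, and AY036118 alone exceeds all other members together by several fold.

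Single members were tested in the fit across all 42413 transcripts with a count sum over 2. Of the 1110 members, 10 rose with age and 2 fell at an adjusted p under 0.05 in edgeR's quasi-likelihood test. Among all 28307 transcripts with a count sum over 20, 2.15% rose and 0.332% fell, against 0.901% and 0.180% of the members. With 2 members that fell, the shares that fell are too close to compare. The median count sum was 76 in members against 122, and its part in the smaller share that rose was not tested. The fold exceeded 4 (absolute log2 fold change over 2) for 8 of those that rose and both that fell. The elderly pair of libraries lay wholly above the mature pair in 232 members and wholly below it in 171. These were 20.9% and 15.4% of the members, beside 20.4% and 19.7% of all transcripts. The median log2 fold change of the members was 0.07 (quartiles -0.35 and 0.50), beside -0.01 for all transcripts, and 98 members had an unadjusted p under 0.05. All 12 called members had libraries that did not overlap between the ages.

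Leaving out either elderly library left 0 calls among all transcripts in edgeR (2178 without elderly library 1 and 2057 without elderly library 2 at an unadjusted p under 0.05), a fit whose prior degrees of freedom were 1.85 in place of 20.5. The calls given here therefore cannot be checked in 1 elderly library alone. Fits without a mature library had infinite prior degrees of freedom. Adjusted p-values quoted from those fits therefore carry no spread estimated for the single transcript. DESeq2 called 5 members higher and 1 lower, all among the 12.

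**Figure D2:**
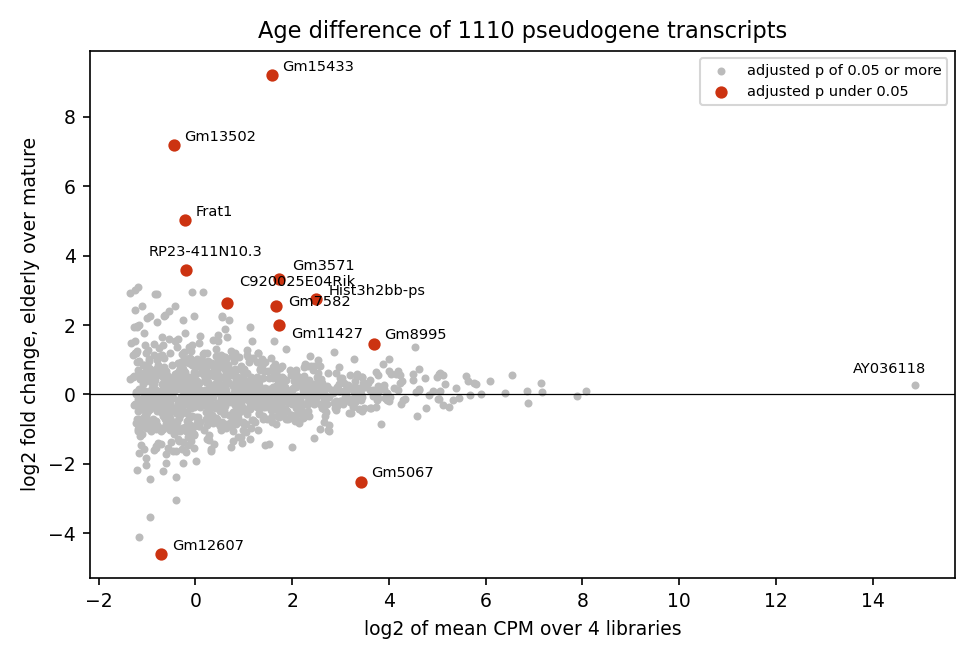
Log2 fold change (elderly over mature) of each of the 1110 members against the log2 of its mean CPM over the 4 libraries. The 12 members with an adjusted p under 0.05 are in red and named. AY036118 lies far to the right of every other member and close to no change.

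Members similar to genes of isoprenoid synthesis were among those that rose. Gm3571 (chr10:93241372-93242514, + strand, 2 exons) is 98.8% identical to Fdps, farnesyl diphosphate synthase of the mevalonate pathway that leads to cholesterol. It had 8 and 6 counts in mature libraries and 67 and 90 in elderly ones. Each elderly library held several times the counts of either mature one. The mean rose from 0.592 ± 0.115 CPM to 6.06 ± 0.127 CPM (SD, n = 2; log2 fold change 3.33, SE 0.505, adjusted p = 0.000432, edgeR). Fdps itself had 88 and 62 counts in mature and 280 and 516 in elderly libraries and rose as well (log2 fold change 2.25, SE 0.323, adjusted p = 0.000243, edgeR). Of the 40-base words of Gm3571, 37.4% were found nowhere else, and whether its reads came from Fdps mRNA was not tested.

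Gm13502 (chr2:53553406-53555881, - strand, 1 exon) aligned along its whole length of 2476 bases, at 99.3% identity, to Idi1, the isomerase that makes the dimethylallyl diphosphate used by Fdps. It had 0 and 0 counts in mature and 17 and 21 counts in elderly libraries. The elderly mean of 1.47 ± 0.0564 CPM (SD, n = 2) was at least 5.81-fold higher than the level of 3 counts per mature library (adjusted p = 0.00612, edgeR). Its words were unique at 1.64%, the lowest of the called members. Idi1 could not be set beside it, because its 2 annotated transcripts cover each other or other transcripts at every base, had 0 exon bases of their own and were listed at 0 counts in all 4 libraries.

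A histone copy rose together with the gene it resembles. Hist3h2bb-ps (chr11:58767550-58768014, - strand, 1 exon) (H2bu1-ps in RefSeq) is 95.3% identical to Hist3h2ba, a gene for the core histone H2B. Its counts were 30 and 4 in mature libraries and 146 and 96 in elderly ones. The mature libraries differed widely from each other, yet both lay below the elderly ones. The log2 fold change was 2.75 (SE 0.554, adjusted p = 0.00661, edgeR), and it was 4.80 without mature library 1 and 1.93 without mature library 2. Hist3h2ba showed the same order of libraries, with 26 and 6 counts in mature and 145 and 162 in elderly (log2 fold change 3.14, SE 0.478, adjusted p = 0.000457, edgeR). Normalization by library size alone gave Hist3h2bb-ps an adjusted p = 0.0920 (edgeR). The summed markers of dividing cells were ordered in the same way (435 and 202 CPM in mature, 1181 and 854 CPM in elderly), and their part in these values was not tested.

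The member with the smallest p, Gm15433 (chr1:84960244-84961134, + strand, 1 exon, 891 bases), was counted in elderly libraries only. It had 0 and 0 counts in mature and 48 and 112 in elderly libraries. At a mean of 5.96 ± 2.39 CPM (SD, n = 2) it was at least 23.5-fold higher in elderly than the level of 3 counts per mature library (adjusted p = 1.52e-05, edgeR). Words found nowhere else made up 5.75% of its sequence, the other words occurred at up to 9 places, and no protein-coding transcript of another gene covered at least 50% of its bases.

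Gm7582 (chr1:85024529-85038533, - strand, 4 exons) begins 63.4 kb after the end of Gm15433. Over 54.9% of its bases it is 99.1% identical to Sp100, an interferon-inducible nuclear body protein. Its counts were 10 and 12 in mature and 49 and 95 in elderly libraries, with a log2 fold change of 2.54 (SE 0.489, adjusted p = 0.00484, edgeR). Sp100 itself summed to 26.9 and 33.5 CPM over its transcripts in mature and to 37.4 and 32.3 CPM in elderly libraries, which overlapped. With the test named in the study's methods (exact, dispersion set to 0.2) the adjusted p of Gm7582 was 0.109.

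Other transcripts of this stretch of chromosome 1 were looked up after these values were seen. Within 200 kb on either side, 9 transcripts had a count sum over 20, and 5 of them, including Gm15433 and Gm7582, rose in elderly libraries. Among all transcripts with a count sum over 20, 2.15% rose. Of the words of Gm7582, 30.3% were unique and the others occurred at up to 9 places. Whether the transcripts of this stretch share reads was not tested, so the 5 rises may not be independent. C130026I21Rik, whose annotated span contains Gm7582, had 0 and 0 counts in mature and 16 and 31 in elderly libraries at its transcript chr1:85237861-85251123 (adjusted p = 0.00303, edgeR). Gm7609 (chr1:85196283-85210361) had 0 and 0 against 11 and 38 counts (adjusted p = 0.00391, edgeR), and A530040E14Rik (chr1:85102521-85110607) had 1 and 0 against 19 and 20 counts (adjusted p = 0.0155, edgeR). Between them, A530032D15Rik had 5 and 2 counts in mature and 8 and 12 in elderly libraries (adjusted p = 0.760, edgeR). Trip12, a ubiquitin ligase gene before the group on the chromosome, had 11561 and 10963 counts in mature and 10867 and 15771 in elderly libraries (log2 fold change 0.10, adjusted p = 0.972, edgeR). Fbxo36 and Slc16a14, which lie between Trip12 and Gm15433, had at most 14 and 10 counts in any library (adjusted p = 0.758 and 0.760, edgeR). The whole group that rose was thus at or near 0 in the mature libraries, except Gm7582.

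Gm11427 (chr11:83067698-83074036, + strand, 2 exons) is 93.0% identical to Slfn4, a Schlafen family gene of myeloid cells. It had 7 and 24 counts in mature and 64 and 71 in elderly libraries, and both elderly libraries were above the mature ones (log2 fold change 2.00, SE 0.513, adjusted p = 0.0472, edgeR). Without mature library 1 the log2 fold change was 1.36 (adjusted p = 0.357, edgeR) and without mature library 2 it was 3.12, and DESeq2 gave an adjusted p = 0.0859. Slfn4 had 27 and 10 counts in mature and 57 and 47 in elderly libraries at its countable transcripts, and its most counted transcript had a log2 fold change of 1.35 (adjusted p = 0.340, edgeR). Summed neutrophil markers were higher in the elderly libraries as well (2067 and 1202 against 4503 and 4638 CPM), and their part in this value was not tested.

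C920025E04Rik (chr17:36245531-36248243, - strand, 6 exons) is 94.7% identical over 59.1% of its bases to H2-T23, a gene for a nonclassical MHC class I molecule. RefSeq lists it as a protein-coding gene under the symbol H2-T-ps. Its counts were 2 and 8 in mature and 38 and 30 in elderly libraries (log2 fold change 2.64, SE 0.675, adjusted p = 0.0453, edgeR). Without mature library 1 the log2 fold change was 1.97 (adjusted p = 0.229, edgeR) and without mature library 2 it was 3.91, and DESeq2 gave an adjusted p = 0.121. H2-T23 had 43 and 34 counts in mature and 40 and 67 in elderly libraries, which overlapped.

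Gm8995 (chr7:113654053-113655185, - strand, 2 exons) had the smallest fold among the called members. It had 108 and 54 counts in mature and 219 and 268 in elderly libraries, and both elderly libraries lay above the mature ones (log2 fold change 1.46, SE 0.346, adjusted p = 0.0259, edgeR). The gene Gm1966 on the same chromosome is 89.97% identical to it and had 116 and 71 counts in mature and 232 and 270 in elderly libraries (log2 fold change 1.31, SE 0.326, adjusted p = 0.0400, edgeR). Of the words of Gm8995, 92.7% were unique. Without mature library 2 the log2 fold change of Gm8995 was 1.04 (adjusted p = 0.343, edgeR) and without mature library 1 it was 2.04, and the exact test at a dispersion of 0.2 gave an adjusted p = 0.692.

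Low counts lay behind the remaining members that rose. Frat1 (chr19:41904658-41905299, + strand, 2 exons) is protein coding in RefSeq and encodes a GSK3-binding protein of Wnt signalling, although the annotation used here calls this transcript a pseudogene. It had 1 and 0 counts in mature and 17 and 27 in elderly libraries (ratio 40.2, 95% counting interval 6.85 to 1624, adjusted p = 0.00956, edgeR, and 0.0854 in DESeq2). The fitted log2 fold change of Frat1 was 5.02, and it was 7.41 without mature library 1 and 4.16 without mature library 2. Frat2, 88.9% identical to it and of the same function, had 126 and 86 counts in mature and 131 and 146 in elderly libraries (adjusted p = 0.920, edgeR).

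RP23-411N10.3 (chr9:21338071-21338429, - strand, 1 exon) is 80.6% identical to Ndufb4, a subunit of respiratory complex I, and lies in an intron of AB124611 on the opposite strand. It had 2 and 1 counts in mature and 18 and 24 in elderly libraries (ratio 12.8, 95% counting interval 4.09 to 64.5, adjusted p = 0.0327, edgeR, and 0.130 in DESeq2). Without mature library 2 the adjusted p was 0.112 (edgeR). Ndufb4 had 8 and 33 counts in mature and 23 and 30 in elderly libraries (adjusted p = 0.975, edgeR), and AB124611 had an adjusted p = 0.918 (edgeR).

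Of the 2 members that fell, 1 resembled a ribosome biogenesis gene and 1 a ribosomal protein gene. Copies of ribosomal protein genes were also the most frequent kind, with 181 of the 1110 members. Gm5067 (chr5:26333567-26334575, + strand, 1 exon) is 94.6% identical along its whole length to Rrs1, a regulator of ribosome biogenesis. It had 255 and 177 counts in mature and 30 and 54 in elderly libraries. Its mean fell from 18.3 ± 4.53 CPM to 3.18 ± 0.719 CPM (SD, n = 2; log2 fold change -2.51, SE 0.359, adjusted p = 0.000234, edgeR), while the exact test at a dispersion of 0.2 gave an adjusted p = 0.0682. Rrs1 had 209 and 197 counts in mature and 319 and 366 in elderly libraries, so the gene lay in the other direction from its copy without passing the test (log2 fold change 0.64, SE 0.281, adjusted p = 0.491, edgeR). Gm5067 was the called member with most counts in mature libraries, and 85.3% of its words were unique.

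Gm12607 (chr4:88807603-88808095, - strand, 2 exons) is 86.6% identical over 62.0% of its bases to Rpl17, a protein of the large ribosomal subunit, and 100% of its words were unique. It had 12 and 16 counts in mature and 1 and 0 in elderly libraries (ratio of mature to elderly 30.6, 95% counting interval 5.06 to 1253, adjusted p = 0.0472, edgeR). Without mature library 2 the adjusted p was 0.192 (edgeR), and normalization by library size alone gave 0.124. The fitted log2 fold change of -4.59 was -6.93 without elderly library 1 and -3.59 without elderly library 2. It lies in an intron of Mtap, an enzyme of methionine salvage, on the opposite strand. Mtap had a log2 fold change of 0.32 (adjusted p = 0.790, edgeR), and Rpl17 of -0.20 (adjusted p = 0.957, edgeR).

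**Figure D3:**
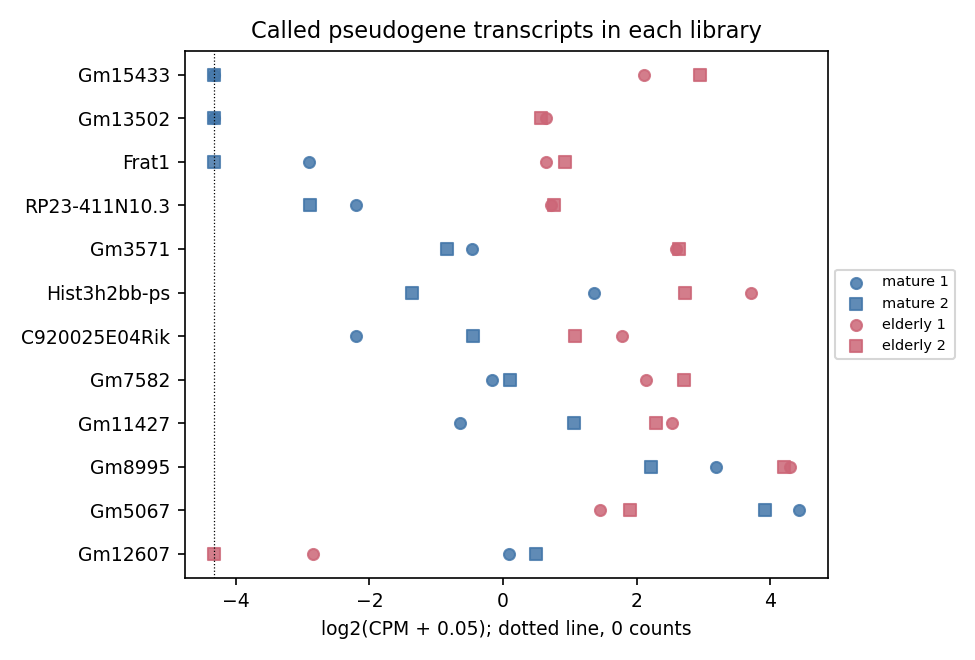
Level of the 12 called members in each library as log2(CPM + 0.05), mature in blue and elderly in red, with circles for library 1 and squares for library 2, ordered by log2 fold change. Points on the dotted line have 0 counts. In every row the mature and the elderly points do not overlap.

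Members with many counts did not pass the test. After AY036118, the highest mean CPM was that of Gm12183, 98.5% identical to the RNA helicase gene Ddx5, with 3014 and 3157 counts in mature and 2528 and 4870 in elderly libraries (log2 fold change 0.10, adjusted p = 0.973, edgeR). Vcp-rs, a copy of the AAA ATPase gene Vcp, had 1622 and 1684 against 1412 and 2469 counts (adjusted p = 0.975, edgeR). Copies of translation genes followed. Gm13456, similar to the elongation factor gene Eef1a1, had 1470 and 1505 against 1923 and 2101 counts, and its elderly libraries lay above the mature ones (log2 fold change 0.32, adjusted p = 0.777, edgeR). Gm6548, a further Eef1a1 copy, had 556 and 615 against 686 and 911 counts (log2 fold change 0.32, adjusted p = 0.784, edgeR). Eif4a-ps4, 99.9% identical to the helicase gene Eif4a1 with 3.39% unique words, had 1203 and 1447 against 1281 and 1866 counts, which overlapped in CPM (adjusted p = 0.972, edgeR).

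Rpl3-ps1 had 1008 and 779 counts in mature and 1471 and 1375 in elderly libraries. Its libraries did not overlap in CPM, but the difference did not pass the test (log2 fold change 0.57, SE 0.253, adjusted p = 0.491, edgeR). This member is 99.8% identical to the ribosomal gene Rpl3, which had a log2 fold change of 0.31 (adjusted p = 0.784, edgeR), and 3.42% of its words were unique. Rpl14-ps1, similar to Rpl14 and inside an intron of Trpm4 on the opposite strand, had 751 and 636 against 1043 and 894 counts (log2 fold change 0.39, adjusted p = 0.756, edgeR). Gm13509, a copy of the clathrin adaptor gene Ap2m1 in an intron of Mbd5, had 725 and 692 against 667 and 901 counts and the most even levels of these members, 59.9 ± 1.52 CPM in mature and 60.5 ± 1.51 CPM in elderly (SD, n = 2; log2 fold change 0.01, adjusted p = 0.997, edgeR).

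Several abundant members are genes in their own right in RefSeq. Cebpd, a C/EBP transcription factor of adipocyte and myeloid differentiation, had 2012 and 3652 counts in mature and 2013 and 4190 in elderly libraries (log2 fold change -0.04, SE 0.280, adjusted p = 0.989, edgeR). Here the libraries numbered 1 and the libraries numbered 2 were alike and the ages overlapped. Ankrd57, listed by RefSeq as Sowahc, had 1508 and 1535 against 1212 and 1569 counts (log2 fold change -0.26, adjusted p = 0.832, edgeR). Chmp1b, an ESCRT-III component in an intron of Gnal, had 950 and 1025 against 898 and 1362 counts (log2 fold change 0.05, adjusted p = 0.981, edgeR). RefSeq lists 36 of the 1110 members as protein coding, 744 as pseudogenes, 62 as transcribed pseudogenes, 9 as long noncoding RNAs and 5 as other RNAs, and 254 had no match. Of the 36, 2 rose (Frat1 and C920025E04Rik).

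Within the smaller types, values were as follows. Among unprocessed transcribed members, Pisd-ps1, a copy of the mitochondrial phosphatidylserine decarboxylase gene Pisd, had 498 and 445 counts in mature and 610 and 880 in elderly libraries (log2 fold change 0.52, SE 0.251, adjusted p = 0.580, edgeR). Pisd-ps2 had 181 and 154 against 191 and 210 counts (log2 fold change 0.14, adjusted p = 0.968, edgeR). Gm6493, similar to the nuclear import gene Tnpo1, had 381 and 537 against 522 and 618 counts (adjusted p = 0.938, edgeR). Gm14045, similar to the signal peptidase subunit gene Spcs2, had 147 and 182 against 141 and 271 counts (adjusted p = 0.963, edgeR). In 9130208D14Rik, with 167 and 79 against 211 and 287 counts, the log2 fold change was 0.89 (adjusted p = 0.342, edgeR). It was 1.51 without mature library 1 and 0.43 without mature library 2.

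Processed members not annotated as transcribed had a median count sum of 65, beside 76 for all members. Gm7658, similar to the initiation factor gene Eif3m, was the most counted, with 230 and 163 counts in mature and 231 and 310 in elderly libraries (log2 fold change 0.33, adjusted p = 0.830, edgeR). RP23-26J4.2, 73.6% identical to the peroxiredoxin gene Prdx3, had 89 and 116 against 82 and 81 counts (log2 fold change -0.44, adjusted p = 0.789, edgeR). Gm13204, similar to Rps2, had 58 and 110 against 79 and 110 counts (adjusted p = 0.997, edgeR). RP24-216B4.2, similar to Tm2d1, had 49 and 63 against 34 and 47 counts (log2 fold change -0.60, adjusted p = 0.758, edgeR), and Gm12312, similar to Fgfr1op2, had 63 and 26 against 41 and 63 counts (adjusted p = 0.984, edgeR). Of the 41 members of this type, 8 (19.5%) had both elderly libraries above the mature ones and 12 (29.3%) had both below. The shares among all transcripts were 20.4% and 19.7%. By the edgeR test 1 rose (RP23-411N10.3).

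Members with separated libraries are counted by family of the similar gene, with no test, beside 20.4% above and 19.7% below among all transcripts. Copies within a family can share reads and are not independent. Copies of ribosomal protein genes formed the largest family, with 181 members, of which 49 had both elderly libraries above and 30 both below (median log2 fold change 0.15). None rose by the edgeR test and 1, Gm12607, fell. The 18 members of this family with an unadjusted p under 0.05 did not otherwise reach the adjusted threshold. Copies of translation factor genes (25 members, 10 above and 0 below, median 0.32), of RNA-binding and splicing genes (32 members, 8 and 3, median 0.42) and of chaperone and cyclophilin genes (29 members, 9 and 3, median 0.20) leaned to higher values without a call (1, 4 and 1 at an unadjusted p under 0.05 in edgeR). Copies of respiratory chain and ATP synthase genes (32 members, 3 above and 10 below, median -0.14) and of ubiquitin and proteasome genes (20 members, 2 and 7, median -0.18) leaned to lower values, with 1 call, RP23-411N10.3, in the first family. Glycolysis (12 members, median -0.06), HMG and chromatin (24 members, median 0.17), cytoskeleton (18 members, median 0.14) and zinc finger (8 members, median -0.15) copies had 0 calls. The 2 ferritin copies (median -0.24) and 3 chemosensory receptor copies (median 0.70) also had none. A further 578 members matched genes outside these families (median 0.04, 6 called higher and 1 lower), and 110 matched no gene (median -0.13, 1 called higher).

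Copies of cell division genes had the highest median among the families, at 0.97 for 14 members. Both elderly libraries lay above the mature ones in 9 of the 14 (64.3%) and below in 0, beside 20.4% and 19.7% of all transcripts. None passed the adjusted threshold in edgeR (2 at an unadjusted p under 0.05). Gm11223, 99.5% identical to the microtubule regulator gene Stmn1, had 3 and 4 counts in mature and 20 and 14 in elderly libraries (adjusted p = 0.308, edgeR). Gm7856, similar to the mitotic checkpoint target Cdc20, had 4 and 5 against 20 and 13 counts (adjusted p = 0.487, edgeR). Plk-ps1, the copy of the mitotic kinase gene Plk1 and the member of this family with most counts, had 88 and 118 against 98 and 117 (log2 fold change -0.06, adjusted p = 0.985, edgeR). The markers of dividing cells were higher in both elderly libraries for 10 of 10 genes, and their part in these counts was not tested. Gm11223, Gm7856 and Plk-ps1 were chosen for naming after their values were seen.

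Of 14 histone copies (median 0.41), 6 (42.9%) had both elderly libraries above the mature ones and 0 below. The shares among all transcripts were 20.4% and 19.7%. Hist3h2bb-ps was the single call. H3f3c, 99.0% identical to the replacement histone gene H3f3a, had 56 and 47 counts in mature and 117 and 145 in elderly libraries (log2 fold change 1.22, adjusted p = 0.103, edgeR), and Gm12260, similar to Hist1h3g, had 1 and 4 against 14 and 13 counts (adjusted p = 0.408, edgeR). Of 8 copies of the MHC and interferon-inducible genes that were listed by symbol, 4 lay above and 0 below (median 0.79), with C920025E04Rik the single call. That list did not hold Sp100, so its called copy Gm7582 was counted outside these families. Gm8835, similar to the classical class I gene H2-K1, had 5 and 1 counts in mature and 11 and 44 in elderly libraries (log2 fold change 2.95, adjusted p = 0.0743, edgeR), whereas H2-K2, also most similar to H2-K1, had 119 and 185 against 133 and 195 counts (log2 fold change -0.03, adjusted p = 0.997, edgeR). H3f3c, Gm12260, Gm8835 and H2-K2 were also chosen after their values were seen.

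The fold changes of members and of their similar genes were set side by side for 375 pairs with at least 100 counts in the member. They had the same sign in 217 pairs (57.9%), with Pearson's r = 0.22 and Spearman's rho = 0.16 across pairs, which share the same 4 libraries and are not independent. Pearson's r was 0.26 for the 162 pairs with under 50% unique words and 0.22 for the other 213, while Spearman's rho was 0.16 and 0.18. Among the called members, the similar gene rose with its copy for Gm3571, Hist3h2bb-ps and Gm8995.

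**Figure D4:**
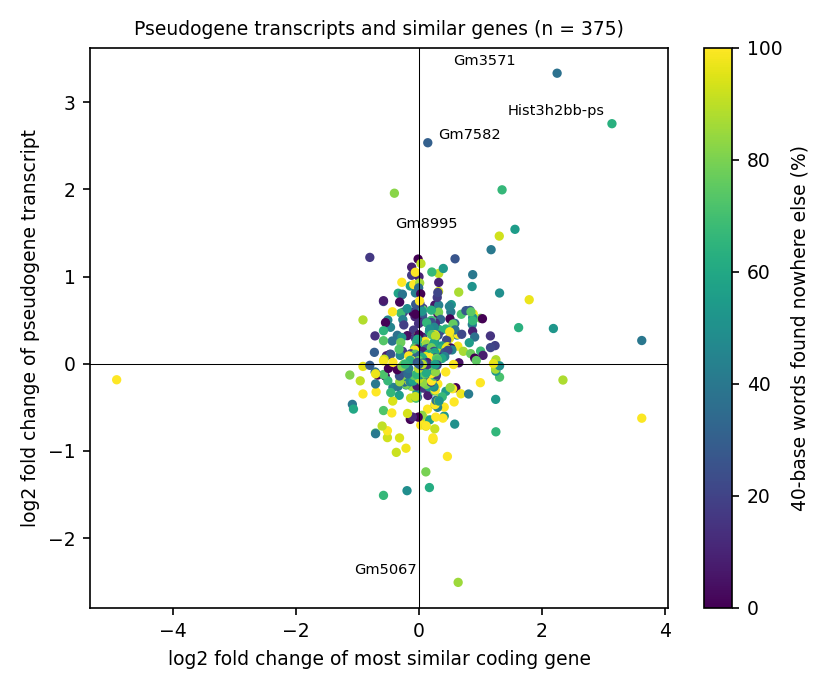
Log2 fold change (elderly over mature) of 375 members with at least 100 counts against that of the most similar protein-coding gene, 1 point per member, coloured by the percent of 40-base words found nowhere else. Gm3571, Hist3h2bb-ps and Gm8995 lie at the upper right, and Gm5067 lies at the bottom right of the vertical line with a gene whose value is above 0.

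Members with little unique sequence leaned to higher values in elderly libraries. The median log2 fold change was 0.48 for the 34 members with no unique word, 0.33 for 49 members with up to 10%, 0.19 for 253 members with 10 to 50%, 0.06 for 373 members with 50 to 90% and -0.10 for 401 members with at least 90%. The quartiles of neighbouring classes overlapped widely. Members with both elderly libraries above the mature ones were 8 of 34, 20 of 49, 70 of 253, 74 of 373 and 60 of 401 in the same order. Those with both below were 2, 3, 28, 59 and 79. As shares, 23.5%, 40.8%, 27.7%, 19.8% and 14.96% lay above. Below lay 5.88%, 6.12%, 11.1%, 15.8% and 19.7%. All transcripts with a count sum over 20 had 20.4% above and 19.7% below. The share above in the class with 50 to 90% unique words was thus close to that of all transcripts. No test of this order was made, since members with shared sequence can draw on the same reads.

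**Figure D5:**
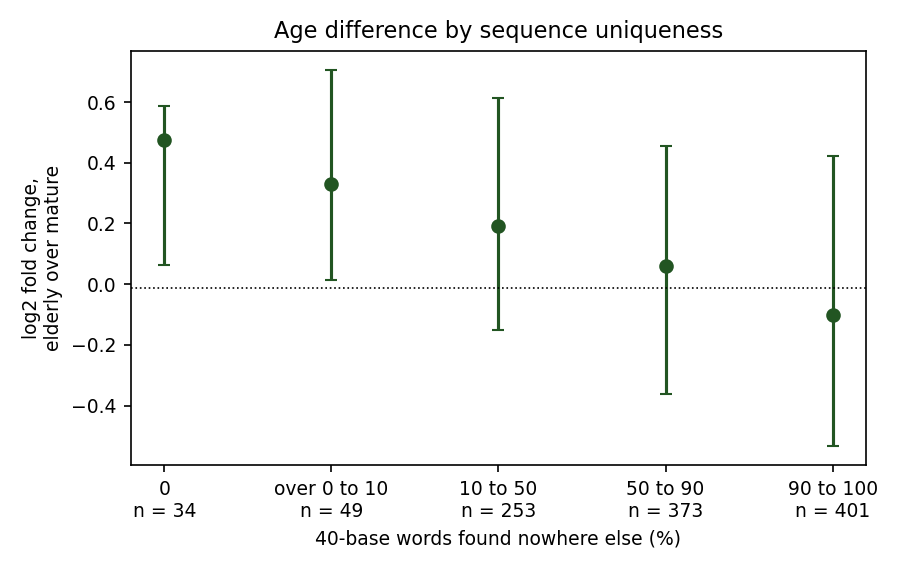
Median log2 fold change (elderly over mature, points) and quartiles (bars) of members grouped by the percent of 40-base words found nowhere else in the genome and transcript sequences, with the number of members in each class. The dotted line marks the median of all 28307 transcripts with a count sum over 20, at -0.01. Medians fall from 0.48 to -0.10 from left to right while the bars overlap.

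Members were also grouped by their place in the genome. The 478 members outside the span of any other gene had a median log2 fold change of 0.15, with 123 (25.7%) above and 55 (11.5%) below. The shares among all transcripts were 20.4% and 19.7%. These 478 held 7 of the 10 that rose and 1 of the 2 that fell. Members in an intron of a protein-coding gene had medians of 0.00 on the same strand (225 members, 35 above and 42 below) and -0.02 on the opposite strand (315 members, 56 and 61). Members outside other genes also had less unique sequence (median 62.7%, against 86.0% and 83.2%). For 90 members with at least 100 counts in an intron on the same strand, Pearson's r with the surrounding gene was 0.42 and Spearman's rho 0.24, and for 113 on the opposite strand r was 0.15 and rho 0.14, given as descriptions across pairs from the same libraries. Among those with at least 90% unique words, r was 0.048 and rho 0.23 for 30 members on the same strand. For 45 on the opposite strand r was 0.16 and rho 0.076, so the 2 measures ordered the strands differently. Strand could not separate a member from an overlapping gene here. None of the 402 transcripts whose own bases (at least 100) exist only when the opposite strand is disregarded had a count, whereas 74.2% of the 51324 transcripts with at least 100 own bases over both strands did, which is the pattern of counting without strand.

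The count minimum fell between transcripts of similar values. Just inside, at a sum of 21 counts, Gm15210 had 5 and 5 counts in mature and 5 and 6 in elderly libraries, and Gm10284 had 10 and 7 against 1 and 3. Just outside, at a sum of 20, Gm12663 had 2 and 1 against 6 and 11, and Gm11191 had 7 and 3 against 4 and 6. There were 22 pseudogene transcripts at 21 counts and 23 at 20.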

How the data were processed

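RNA of Lin-LEPR+ bone marrow cells was sequenced in 2 mature and 2 elderly libraries with a directional kit. The labels give poly(A) RNA for all 4 libraries, while the study's methods except a mouse group processed as total RNA under a name that these labels do not carry. The authors trimmed reads with CutAdapt, aligned them with HISAT2 to NCBI Build 37 and deposited featureCounts counts per Ensembl transcript. The handling of reads with several places and the strand setting are not given in the sources used here. Positions and types came from GENCODE release 1 for mouse, of which 388 listed transcripts had no entry. Libraries were grouped by the age in the labels. Transcripts with a count sum over 2 were tested in edgeR 4.0.16 (R 4.3.3) by quasi-likelihood with TMM factors and Benjamini-Hochberg adjustment over all 42413. DESeq2 1.42.0, an exact test at a dispersion of 0.2, other filters, scalings, member definitions and left-out libraries were alternatives. Simulated data had a single dispersion for all transcripts, and changes were placed only in transcripts with a mean of at least 1 CPM. There the edgeR step recovered 41 of 100 transcripts changed 4-fold and 91 of 100 changed 8-fold. It made 1 false call among 133, with 42037 transcripts tested. These rates do not extend to called members below that level or to transcripts whose spread differs from the simulated one. Similarity came from blastn 2.17.0 against protein-coding transcripts, and words of 40 bases were counted over genome and transcripts. RefSeq gene types were matched by symbol and, failing that, by a synonym. Named members were those called, the 12 with the highest mean CPM, the 5 most counted of each type with at least 20 members, and 2 on each side of the count minimum. The members and lists were chosen with earlier results of these data known.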

Additional observations from a re-analysis of the deposited data

How the results depend on the processing

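Depth limits members under about 0.25 CPM per library. With 10 members called higher and 2 lower, DESeq2 called 5 and 1 (2 of the 12 had no adjusted p there), the exact test at a dispersion of 0.2 called 5 and 1, library size alone 5 and 1, robust quasi-likelihood 19 and 4, no filter 17 and 4, filterByExpr 8 and 1, and a table without AY036118, tried after seeing the data, 8 and 1. Leaving out each library in turn gave 0 to 15 higher and 0 to 3 lower. The replicate block gave 20 higher and 4 lower, all 12 among them, but same-numbered libraries deviated together at a correlation of 0.0475 over 20989 transcripts, so the numbers were not taken to pair the samples. Members with a count sum over 100 held 6 and 1 calls (107 above and 62 below with libraries apart). Members with at least 50% unique words held 6 and 2 (134 above and 138 below), and members outside other genes 7 and 1 (123 and 55). All members had 232 above and 171 below. Among all transcripts with a count sum over 20, 20.4% lay above and 19.7% below, and 2.15% and 0.332% were called higher and lower. A count sum over 2 gave 406 above and 273 below. The median log2 fold change was -0.0139 for members with at least 50% unique words, 0.15 for those outside other genes and -0.0197 to 0.118 with a library left out. The difference in the share of counts ran from -0.449 to 1.77 percentage points with a library left out. For named members, 402 recomputed values kept their direction and side of the threshold, 52 kept their direction and lost the call, 1 gained it, and 18 changed sign without a call. All but 2 of the sign changes came with a library left out, where the log2 fold change ran from -0.169 to 0.586 for AY036118, -0.219 to 0.350 for Gm12183, -0.426 to 0.441 for Cebpd, -0.159 to 0.270 for Vcp-rs, -0.0269 to 0.239 for Eif4a-ps4, -0.0685 to 0.155 for Chmp1b, -0.0284 to 0.0393 for Gm13509, -0.0426 to 0.452 for Gm6493, -0.154 to 0.411 for Gm14045, -0.427 to 0.847 for Gm12312 and -0.362 to 0.560 for Gm13204. Gm13509 was also at -0.00628 under filterByExpr and -0.00274 without AY036118. Gm15433 and Gm3571 kept their calls in 12 of 14 alternatives, the exceptions being the fits without an elderly library. The cause of these differences was not tested.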

Other observations

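Transcripts of the type retrotransposed, which describes copied mRNAs without the word pseudogene and so lay outside the definition used here, numbered 91 with a count sum over 20. None was called by edgeR (smallest adjusted p = 0.0698), 9 had an unadjusted p under 0.05, and their median log2 fold change was 0.21.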
